A study of Mus musculus with 5 samples.

Results

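Lactate and pyruvate sit where glycolysis meets the mitochondrion, and 8 genes that convert or carry them were examined in tibialis anterior (TA) muscle of mice. The genes are those of the lactate dehydrogenases (Ldha, Ldhb and Ldhd), of the monocarboxylate transporters MCT1 and MCT4 (Slc16a1 and Slc16a3) with their chaperone basigin (Bsg), and of the mitochondrial pyruvate carrier (Mpc1 and Mpc2). They were taken by gene symbol, and each has 1 row among the 17015 genes of the authors' table.

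TA, a fast-twitch muscle of the lower leg, was taken from sedentary male mice at 8 weeks of age. The WT control group holds 3 libraries, from littermates without Cre, and the skmNrip1-/- group holds 2, from mice in which a myogenin promoter drives Cre in skeletal muscle to remove the floxed coding exon of Nrip1. The floxed line was made on C57BL/6J and crossed to Cre mice described as C57BL/6JN. Nrip1 encodes receptor-interacting protein 140 (RIP140), a coregulator of nuclear receptors. Libraries were grouped by their labels, and each was taken as 1 mouse, since the study counts mice. A further skmNrip1-/- mouse that the legend of the study counts was not analysed here, and every value of that group rests on 2 libraries. The values are FPKM, fragments per kilobase of transcript scaled for library size, a level per length that can be compared between genes.

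The FPKM of Nrip1 itself was 4.64, 7.69 and 6.55 in WT control replicates 1 to 3, and 25.3 and 22.5 in skmNrip1-/- labelled replicates 1 and 2. The targeted gene was therefore higher where its coding exon should be absent (log2 fold change 1.94, standard error (SE) 0.21, limma adjusted p = 0.0261). The table does not separate exons, and every direction given here rests on the labels. For this line, the paper compared Nrip1 expression and RIP140 protein between genotypes in gastrocnemius and heart. It also compared Nrip1 by RT-qPCR in WT control and skmNrip1-/- males at 8 weeks of age, in a legend that names no tissue. The FPKM sums of the libraries ran from 969144 to 1288038, and mtDNA-encoded genes took 45.4% to 50.7% of them in WT control TA and 58.6% to 60.9% in the libraries labelled skmNrip1-/-. Fragment totals of the libraries are unknown. From the steps between low FPKM values, depth relative to WT control replicate 1 was between 0.812 and 1.09. All 7 markers of the skeletal muscle fiber that were listed were present in every library, with summed levels of 58885 to 77617 FPKM in WT control TA and 54169 to 56638 in the other group.

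L-lactate dehydrogenase is a tetramer of A and B subunits that interconverts pyruvate and lactate with NADH. The A subunit predominates in fast glycolytic fibers and is associated with lactate formation, and the B subunit predominates in heart and oxidative fibers and is associated with lactate use. MCT4 is the main lactate exporter of glycolytic fibers, MCT1 is associated with lactate uptake in oxidative fibers, and both need basigin to reach the plasma membrane. Pyruvate that is not reduced to lactate enters mitochondria through the carrier formed by MPC1 and MPC2. Endurance training is known to shift muscle toward the B subunit and MCT1.

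Differences were tested with limma on log2(FPKM + 0.1) over the 12148 genes whose mean reached 0.5 FPKM. Calls required a Benjamini-Hochberg adjusted p no higher than 0.05 and a 1.2-fold difference or more. On this scale the change of low genes is understated. For a single value, 2 libraries against 3 allow 10 splits, so an exact permutation test cannot give a p below 0.1 one-sided or 0.2 two-sided. All 8 genes passed the minimum, and 1 of them, Ldhb, was called, where 0.453% of all genes tested were called in either direction (0.37% higher and 0.0823% lower). Before adjustment, 4 of the 8 reached a p of 0.05, with Ldhb and Ldhd higher and Ldha and Slc16a3 lower, against 11.9% of all genes tested. Libraries of the groups did not overlap for 6 of the 8, with 3 higher and 3 lower in the libraries labelled skmNrip1-/-, against 30.2% of all genes tested (15.8% higher and 14.4% lower). The genes were chosen with earlier results of these data known, so these counts describe them and are no test of the set. In WT control TA the order of levels was Ldha, Bsg, Mpc1, Slc16a3, Mpc2, Ldhb, Ldhd and Slc16a1, from a mean of 2068 to one of 14.7 FPKM. Among neighbors in this order, only Bsg and Mpc1 had WT control libraries that overlapped. In the libraries labelled skmNrip1-/- the order differed at 2 places, where both libraries of Mpc1 lay above both of Bsg, and both of Mpc2 above both of Slc16a3. All other neighbors of the WT control order kept that order and lay apart. Slc16a3 and Ldhb, which are neighbors only in the libraries labelled skmNrip1-/-, overlapped there, at 253 and 191 against 214 and 184 FPKM.

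**Figure D1:**
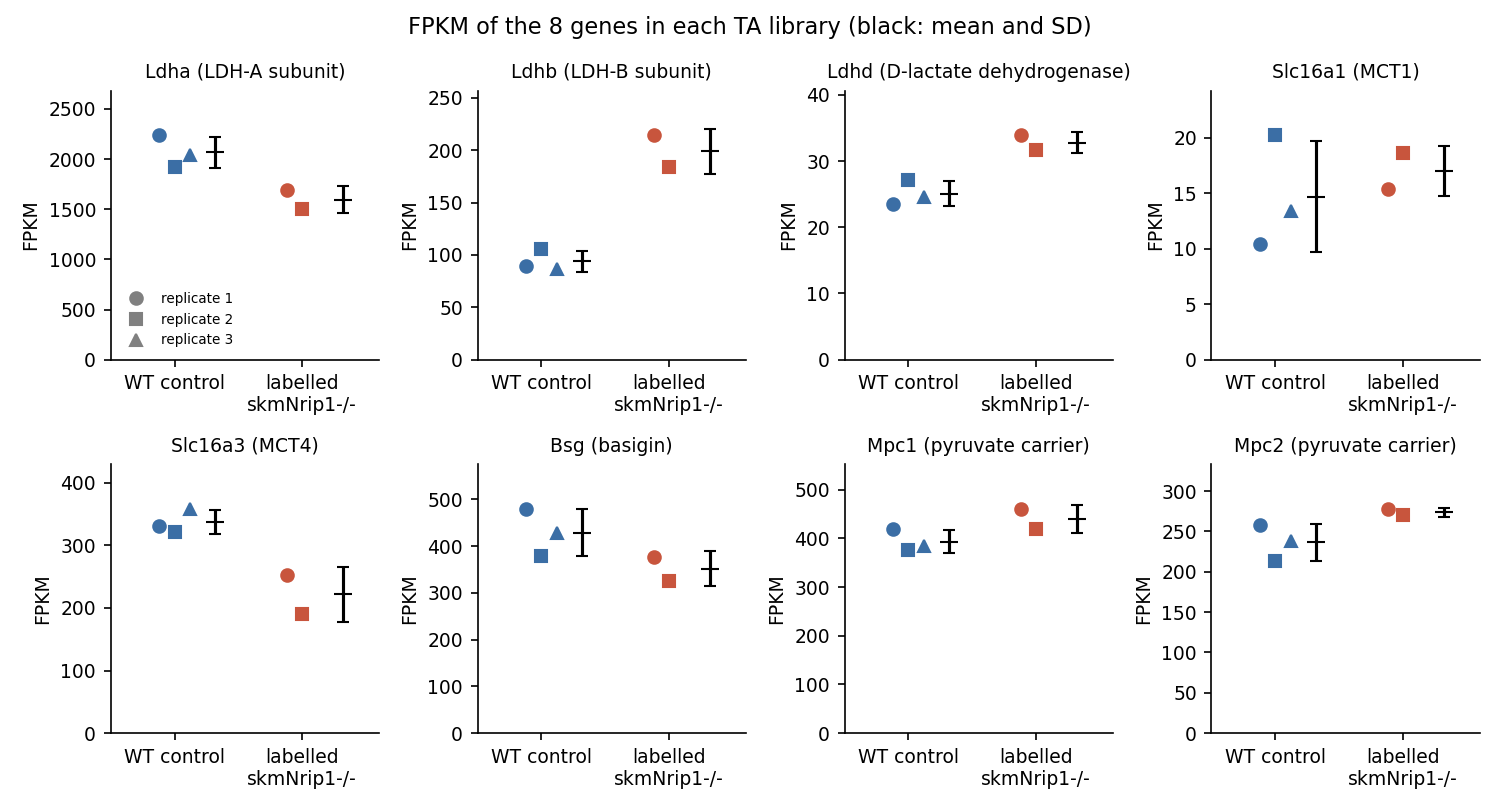
FPKM of each of the 8 genes (vertical axes, linear, from 0) in the 3 WT control libraries (blue) and the 2 libraries labelled skmNrip1-/- (red), with symbols for the replicate number and the mean and SD in black. Ldhb lies between 86.2 and 106 in WT control TA and at 184 and 214 in the other group, while Slc16a1 and Mpc1 overlap.

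Ldhb, the gene of the heart-type B subunit (ENSMUSG00000030246, chromosome 6, 142490249 to 142507957 on GRCm38, minus strand), rose. Its FPKM was 89.7, 106 and 86.2 in WT control replicates 1 to 3, and 214 and 184 in skmNrip1-/- labelled replicates 1 and 2. Both libraries of the second group lay above every WT control library, with a gap far wider than the spread inside either group. The WT control mean was 93.9 ± 10.4 FPKM (SD, n = 3) and that of the other group 199 ± 21.3 (SD, n = 2). The log2 fold change was 1.09 (SE 0.13, limma adjusted p = 0.0376), or 2.12-fold. By its p, Ldhb ranked 36 of the 12148 genes tested. The call was lost when any library but WT control replicate 2 was left out. Its log2 fold change was then 1.06 without WT control replicate 1, 1.03 without WT control replicate 3, 0.98 without replicate 1 labelled skmNrip1-/- and 1.2 without replicate 2 labelled skmNrip1-/-. The limma adjusted p over these fits ran from 0.0864 to 0.27. The call was also lost without limma's intensity trend (limma adjusted p = 0.0943) and with the replicate number as a block (limma adjusted p = 0.228).

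Ldha, the gene of the muscle-type A subunit (ENSMUSG00000063229, chromosome 7, 46841475 to 46855627, plus strand), was the most abundant of the 8 genes and ranked 42 of the 17015 genes in WT control TA. Its FPKM was 2237, 1926 and 2042 in WT control replicates 1 to 3, and 1691 and 1502 in skmNrip1-/- labelled replicates 1 and 2. The groups did not overlap, but the gap between the nearest libraries was narrower than the range inside the WT control group. The log2 fold change was -0.37 (SE 0.14), and Ldha was not called (limma adjusted p = 0.363).

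The promoter windows of both subunit genes are shown because their levels differed in opposite directions, and they are compared with those of the MCT genes further on. Each window is the 250 bases before a RefSeq start on GRCm38.p6, 5′ to 3′ on the strand of the gene. Capitals mark AGGTCA, a half-site bound by many nuclear receptors, ACGTG, a core shared by E-boxes and hypoxia response elements, CACGTG, an E-box that holds ACGTG on both strands, and TGACGTCA, a cAMP response element, each searched on both strands. The Ldhb window is chr6:142507958-142508207 on the minus strand, and the Ldha window is chr7:46845554-46845803 on the plus strand, at the start near which 5 of the 15 annotated Ldha transcripts begin. Ldha has a second window, not shown, at a start near which 2 transcripts begin.
Ldhb: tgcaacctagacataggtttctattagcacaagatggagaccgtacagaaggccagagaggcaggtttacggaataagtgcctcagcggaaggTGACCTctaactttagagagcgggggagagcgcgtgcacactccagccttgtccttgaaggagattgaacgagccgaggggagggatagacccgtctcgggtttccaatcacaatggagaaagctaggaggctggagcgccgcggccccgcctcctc
Ldha: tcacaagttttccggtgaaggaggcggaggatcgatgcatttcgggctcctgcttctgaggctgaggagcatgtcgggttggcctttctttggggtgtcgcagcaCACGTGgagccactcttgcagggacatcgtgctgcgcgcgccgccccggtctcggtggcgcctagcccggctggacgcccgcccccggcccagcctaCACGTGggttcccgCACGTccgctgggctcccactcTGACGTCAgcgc
The Ldhb window held AGGTCA once, on the opposite strand from 157 to 152 bases before the start, and none of the other motifs. The Ldha window held CACGTG from 145 to 140 and from 48 to 43 bases before the start. It also held ACGTG on the opposite strand from 34 to 30 bases before the start, and TGACGTCA from 12 to 5. It did not hold AGGTCA, and the second Ldha window held none of the 4 motifs. CACGTG was also in the window of Ldhd, which was higher in the libraries labelled skmNrip1-/-, from 139 to 134 bases before the start. AGGTCA was also in 1 of the 2 windows of Mpc1, whose groups overlapped, on the opposite strand from 244 to 239. Whether matches go with the direction of the differences was not tested. The Mpc2 window held none of them. Of 32851 windows of this length, 14% hold AGGTCA, 16.6% ACGTG, 6.02% CACGTG and 1.55% TGACGTCA. These matches describe the letters of the windows and were not tested as binding sites.

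The ratio of Ldhb to Ldha within a library does not depend on the scaling between libraries. It was 0.0401, 0.0549 and 0.0422 in WT control replicates 1 to 3, and 0.127 and 0.123 in skmNrip1-/- labelled replicates 1 and 2. The groups lay apart, and the 2 libraries of the second group were closer to each other than any 2 WT control libraries except replicates 1 and 3. As a share of the summed FPKM of both subunit genes, Ldhb made up 4.37% ± 0.727 (SD, n = 3) in the WT controls and 11.1% ± 0.233 (SD, n = 2) in the other group. The difference in the log2 ratio was 1.46, and it ran from 1.37 to 1.6 with any 1 library left out. Ldha thus remained the main subunit transcript in every library, at 18.2 to 24.9 times the FPKM of Ldhb in WT control TA and 7.89 and 8.16 times in the other group. The summed FPKM of both genes was 2327, 2032 and 2128 in WT control replicates 1 to 3, and 1905 and 1686 in skmNrip1-/- labelled replicates 1 and 2. The mean of the sum differed by -16.9%, made of -472 FPKM in Ldha and 105 in Ldhb. No test was made of the ratio or the sum.

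**Figure D2:**
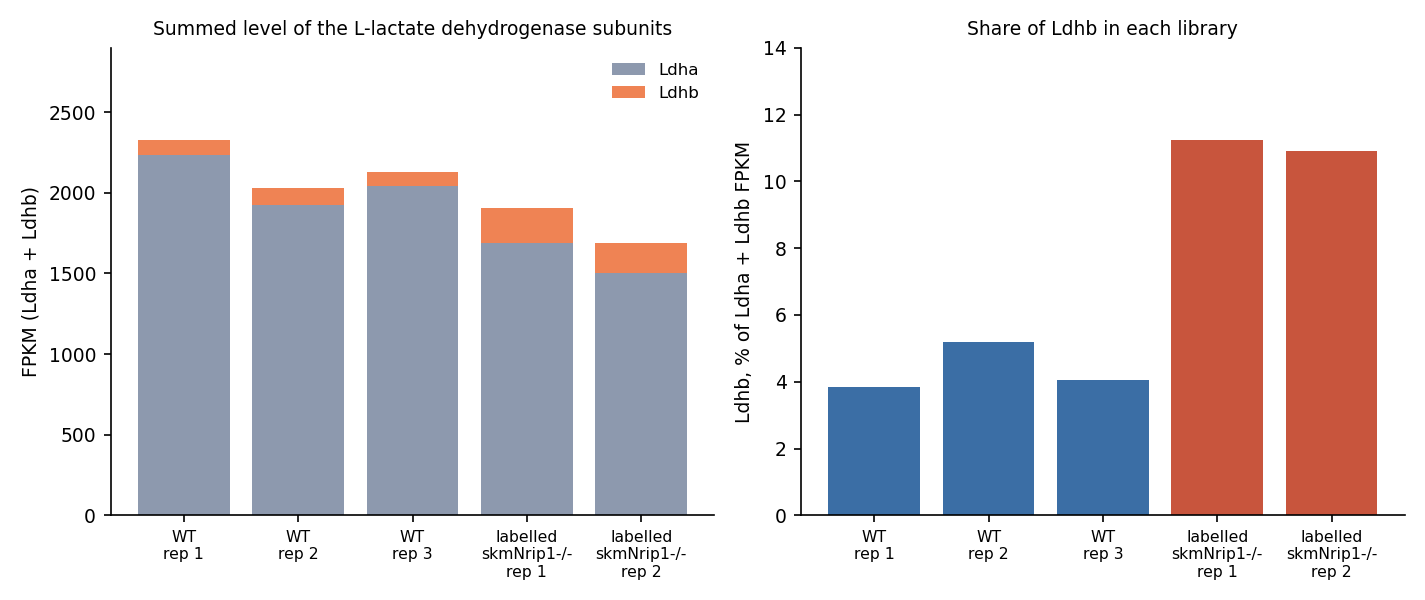
Left, FPKM of Ldha and Ldhb stacked for each of the 5 libraries (linear axis from 0). Right, Ldhb as a percent of the summed FPKM of Ldha and Ldhb in the same libraries, between 3.86 and 5.20 in the WT control libraries (blue) and at 11.2 and 10.9 in the libraries labelled skmNrip1-/- (red).

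Sequence copies could affect these levels, because Salmon divides fragments between similar transcripts. For Ldha, 14 processed pseudogenes share at least 150 bases at 90% identity or more with it, and for Ldhb 1 does, Gm5514, at 98.0% over 1002 bases. In the table, 4 of the Ldha copies are listed, none above 0.688 FPKM, and Gm5514 was at most 0.477. The copies listed in the table thus held little of the signal of either gene.

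Ldhd encodes the mitochondrial D-lactate dehydrogenase, a separate enzyme family that oxidizes the mirror form of lactate (ENSMUSG00000031958, chromosome 8, 111623785 to 111630374, minus strand). Its FPKM was 23.5, 27.1 and 24.6 in WT control replicates 1 to 3, and 33.9 and 31.7 in skmNrip1-/- labelled replicates 1 and 2. The groups did not overlap, and the log2 fold change of 0.39 (SE 0.11) was not called (limma adjusted p = 0.256). Of its annotated exon bases, 42.2% also lie in exons of Znrf1 on the opposite strand. The library kit named does not mark strand, so fragments from these bases cannot be assigned to one gene. Znrf1, a ubiquitin ligase gene, was at 32.4, 33.1 and 35.2 FPKM in WT control replicates 1 to 3, and at 38.9 and 37.6 in skmNrip1-/- labelled replicates 1 and 2 (log2 fold change 0.19, limma adjusted p = 0.517). The part of Znrf1 in the Ldhd values was not tested.

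Slc16a3, the gene of the lactate exporter MCT4 (ENSMUSG00000025161, chromosome 11, 120948480 to 120960868, plus strand), was at 330.3, 321 and 358 FPKM in WT control replicates 1 to 3. It was at 253 and 191 FPKM in skmNrip1-/- labelled replicates 1 and 2. Both of these lay below every WT control library, and they differed from each other more than the WT control libraries did. The log2 fold change was -0.61 (SE 0.15), the largest of the 3 that were below 0, and it was not called (limma adjusted p = 0.197). With 1 library labelled skmNrip1-/- left out, the log2 fold change was -0.82 without replicate 1 and -0.41 without replicate 2.

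Slc16a1, the gene of MCT1 (ENSMUSG00000032902, chromosome 3, 104638668 to 104658462, plus strand), was the least abundant of the 8. Its FPKM was 10.4, 20.2 and 13.4 in WT control replicates 1 to 3, and 15.4 and 18.6 in skmNrip1-/- labelled replicates 1 and 2. The groups overlapped, and the WT control libraries alone spanned the values of the other group. The log2 fold change was 0.26 (SE 0.27, limma adjusted p = 0.78). It ranged from 0.04 without WT control replicate 1 to 0.51 without WT control replicate 2. The FPKM of Slc16a1 was 0.0316, 0.0629 and 0.0374 times that of Slc16a3 in WT control replicates 1 to 3, and 0.0609 and 0.0976 times in the other group, so this ratio overlapped too. Summed over both transporters, FPKM was 341, 341.5 and 372 in WT control TA and 269 and 209 in the libraries labelled skmNrip1-/-. Since Slc16a3 makes up most of this sum, the sum followed Slc16a3.

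The windows of the MCT genes are shown beside those of the subunit genes for the same motifs, at chr3:104638414-104638663 for Slc16a1 and chr11:120948817-120949066 for Slc16a3, both on the plus strand.
Slc16a1: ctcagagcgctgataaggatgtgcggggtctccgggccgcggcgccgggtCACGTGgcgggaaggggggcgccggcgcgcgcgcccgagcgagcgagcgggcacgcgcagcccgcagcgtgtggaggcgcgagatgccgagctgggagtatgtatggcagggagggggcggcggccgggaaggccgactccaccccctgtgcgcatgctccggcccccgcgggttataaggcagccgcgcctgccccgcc
Slc16a3: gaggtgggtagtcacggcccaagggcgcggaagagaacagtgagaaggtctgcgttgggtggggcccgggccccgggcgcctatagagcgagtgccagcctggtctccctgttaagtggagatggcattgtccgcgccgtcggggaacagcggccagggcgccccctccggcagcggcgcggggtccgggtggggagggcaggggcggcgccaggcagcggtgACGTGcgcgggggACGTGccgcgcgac
The Slc16a1 window held CACGTG from 200 to 195 bases before the start. The Slc16a3 window held ACGTG from 27 to 23 and from 14 to 10 bases before the start. Neither held AGGTCA or TGACGTCA.

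Bsg, which encodes the glycoprotein that escorts MCT1 and MCT4 to the membrane (ENSMUSG00000023175, chromosome 10, 79704491 to 79711969, plus strand), was at 479.6, 379 and 427 FPKM in WT control replicates 1 to 3. It was at 378 and 325 FPKM in skmNrip1-/- labelled replicates 1 and 2. The higher of these lay just below the lowest WT control library. The log2 fold change was -0.28 (SE 0.14) and was not called (limma adjusted p = 0.50). It was -0.20 without WT control replicate 1, -0.39 without replicate 1 labelled skmNrip1-/- and -0.18 without replicate 2 labelled skmNrip1-/-. Relative to the summed FPKM of both transporters, Bsg was at 1.41, 1.11 and 1.15 in WT control TA and at 1.41 and 1.55 in the other group, which overlapped.

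The mitochondrial pyruvate carrier genes had the smallest differences of the 8, and neither was called. Mpc1 (ENSMUSG00000023861, chromosome 17, 8282904 to 8297661, plus strand) was at 420.0, 377 and 384 FPKM in WT control replicates 1 to 3, and at 461 and 419.7 in skmNrip1-/- labelled replicates 1 and 2. Its groups overlapped, with a log2 fold change of 0.16 (SE 0.11, limma adjusted p = 0.651). Of the annotated exon bases of Mpc1, 23.1% also lie in exons of 4930506C21Rik on the opposite strand. By the criteria used for Ldha, 3 processed pseudogenes resemble Mpc1, among them Mpc1-ps, identical over 261 bases. The levels of these genes are unknown here, and their part in the Mpc1 values was not tested. Mpc2 (ENSMUSG00000026568, chromosome 1, 165460637 to 165481214, plus strand) was at 258, 213 and 238 FPKM in WT control replicates 1 to 3, and at 278 and 270.2 in the other group. Its groups did not overlap, and the log2 fold change was 0.22 (SE 0.12, limma adjusted p = 0.553). The FPKM of Mpc1 was 1.67 ± 0.0855 (SD, n = 3) times that of Mpc2 in the WT controls and 1.61 ± 0.0735 (SD, n = 2) times in the other group, so the 2 partner genes kept nearly the same proportion.

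The directions of the small differences depend on how the libraries are scaled. Rescaling to TPM, which sets each library to the same total including the mtDNA-encoded genes, put the log2 fold change at the median of all genes tested at -0.29. The log2 fold change of Ldhb was then 0.79 (limma adjusted p = 0.0557), or 1.08 above that median. Those of Ldha and Slc16a3 were -0.67 and -0.91 (limma adjusted p = 0.0557 and 0.0544), or -0.38 and -0.62 against the median. That of Bsg was -0.58 (limma adjusted p = 0.0722), or -0.29 against the median. Slc16a1, Mpc1 and Mpc2 changed sign, to -0.040, -0.14 and -0.083. Against the median these are 0.25, 0.15 and 0.21. Scaled over the genes not encoded by mtDNA, Ldhb was called at a log2 fold change of 1.16 (limma adjusted p = 0.0367), and no sign changed.

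**Figure D3:**
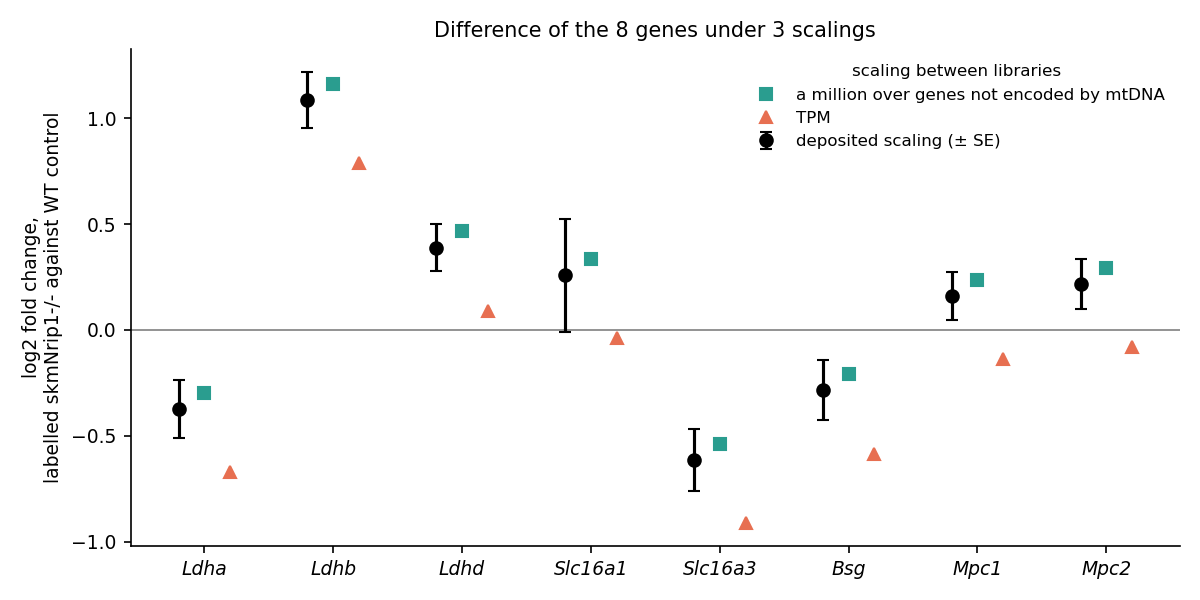
Log2 fold change of the 8 genes between the labelled skmNrip1-/- libraries and WT control, under the deposited scaling (black, with the standard error from limma), scaled to equal totals over genes not encoded by mtDNA (green) and as TPM (orange). Ldhb is above 0 and Ldha, Slc16a3 and Bsg are below 0 under all 3, while Slc16a1, Mpc1 and Mpc2 fall below 0 as TPM.

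Other genes of lactate and pyruvate handling were taken from written lists. None of them was called with the pseudocount of 0.1, the minimum of 0.5 FPKM and the deposited scaling, and the shift of all genes as TPM applies to these lists too. Over all 12148 genes tested, 6064 were above and 6084 below 0. Among the other members of the SLC16 family, 12 are in the table and 6 passed the minimum. Of these, 4 were above and 2 below 0, with a median log2 fold change of 0.17 against -0.00 for all genes tested. This split depends on the minimum, which is set on the mean of all 5 libraries. Slc16a7 and Slc16a8, both above 0, passed it although their WT control means were lower (0.399 and 0.454 FPKM). Slc16a4 did not pass, at a WT control mean of 0.505 FPKM and a mean of 0.406 in the other group. Slc16a7, which encodes MCT2, a transporter with high affinity for lactate and pyruvate, was at 0.211, 0.438 and 0.547 FPKM in WT control replicates 1 to 3, and at 2.41 and 1.73 in skmNrip1-/- labelled replicates 1 and 2. The groups lay well apart at a low level, but Slc16a7 entered the test only through the libraries labelled skmNrip1-/-, where it was high. The log2 fold change was 2.17 (SE 0.37, limma adjusted p = 0.0953). With a pseudocount of 1 in place of 0.1, Slc16a7 was called, at a log2 fold change of 1.13. It was not called with a pseudocount of 0.01 or without a minimum (limma adjusted p = 0.113 and 0.124). Of the other lactate dehydrogenases only Ldhal6b is in the table, below the minimum. Of 5 listed partners and receptors in the table only Nptn, a relative of basigin, passed the minimum, at a log2 fold change of -0.18 (limma adjusted p = 0.594). In the 3 glyoxalase genes, whose pathway yields D-lactate, no unadjusted p reached 0.05.

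The list of enzymes that make or use pyruvate also held the regulators of pyruvate dehydrogenase. Of its 20 genes, 18 passed the minimum, with 14 above and 4 below 0 and a median log2 fold change of 0.25. Before adjustment 6 were higher and 3 lower with a p no higher than 0.05, where 6.57% and 5.33% of all genes tested were. Pkm, the muscle pyruvate kinase that makes the substrate of lactate dehydrogenase, was at 2667, 2245 and 2285 FPKM in WT control replicates 1 to 3, and at 1859 and 1658 in the other group (log2 fold change -0.45, limma adjusted p = 0.309). Ldha was 0.839 to 0.894 times the FPKM of Pkm in WT control TA and 0.910 and 0.906 times in the libraries labelled skmNrip1-/-, so both genes were lower there by nearly the same factor. Gpt2, which converts pyruvate to alanine, had a log2 fold change of -0.77 (limma adjusted p = 0.0513), just past the threshold. It was called with a pseudocount of 1, with a minimum of 1 FPKM, as TPM and when scaled over the genes not encoded by mtDNA. It was not called with a pseudocount of 0.01 or without a minimum (limma adjusted p = 0.0550 and 0.0557). The pyruvate dehydrogenase phosphatases Pdp1 and Pdp2, which activate entry of pyruvate into the TCA cycle, had log2 fold changes of 0.50 and 0.89 (limma adjusted p = 0.247 and 0.282). The opposing kinases Pdk1, Pdk2 and Pdk4 were above 0 too, at 0.25, 0.05 and 0.99 (limma adjusted p = 0.555, 0.911 and 0.474). Pdk4 was at 78.2, 255 and 185 FPKM in WT control replicates 1 to 3, and at 272 and 345 in the other group.

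The shuttles that carry cytosolic NADH electrons into mitochondria compete with lactate dehydrogenase for NADH. Of these 9 genes, 8 were above 0, with a median log2 fold change of 0.25. At an unadjusted p up to 0.05, 4 were higher and none lower, where 6.57% and 5.33% of all genes tested were. The 4 were Got1, Got2, Mdh1 and Slc25a13, all of the malate-aspartate shuttle. Gpd1 and Gpd2 of the glycerol phosphate shuttle were at log2 fold changes of 0.13 and -0.15 (limma adjusted p = 0.716 and 0.724), and the groups overlapped in both. Slc25a13, an aspartate-glutamate carrier, and Mdh1, the cytosolic malate dehydrogenase, had log2 fold changes of 0.83 and 0.79 (limma adjusted p = 0.264 and 0.356). Slc25a13, which is among the 8 and the 4, had a WT control mean of 0.469 FPKM, below the minimum of 0.5 FPKM. It entered the test only through the libraries labelled skmNrip1-/-, where it was at 0.910 and 0.913 FPKM. Among 8 known regulators of the LDH and MCT genes, Ppargc1b and Esrra, a coactivator and a nuclear receptor of oxidative metabolism, had log2 fold changes of 0.60 and 0.36 (limma adjusted p = 0.271 and 0.254). Ppargc1a, the PGC-1α gene, was at 5.50 to 9.86 FPKM in WT control TA and at 7.55 and 7.05 in the other group, and Hif1a overlapped as well.

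**Figure D4:**
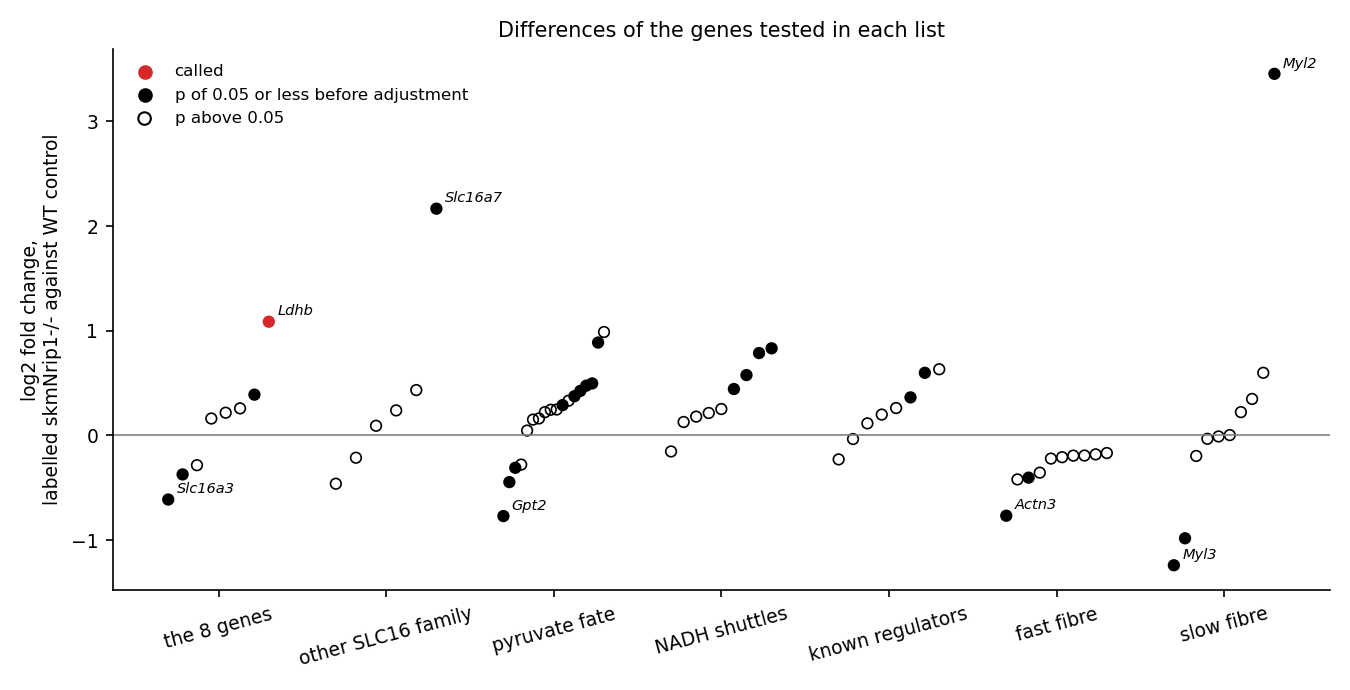
Log2 fold change of each gene tested in 7 written lists (points, ordered by value within a list), with the called gene in red, genes at a p of 0.05 or less before adjustment filled and the others open. Ldhb is the only called gene shown, and Slc16a7 and Myl2 have larger differences that were not called.

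Lactate genes differ between fiber types, and in bulk RNA fewer fibers of a type and less RNA per fiber cannot be told apart. All 10 fast fiber genes listed were below 0, where 6084 of the 12148 genes tested were. Their median log2 fold change was -0.22, and none was called. Libraries of the groups did not overlap for 5 of the 10, where 14.4% of all genes tested were lower without overlap. In Pvalb, Tnnt3 and Tnni2, WT control replicates 2 and 3 spanned both libraries of the other group, and only WT control replicate 1 lay well above them. Pvalb was at 9077, 5606 and 5208 FPKM in WT control replicates 1 to 3, and at 5565 and 5452 in the other group. Actn3, a fast-fiber Z-disc protein, and Mybpc2, a fast myosin-binding protein, had log2 fold changes of -0.77 and -0.40 (limma adjusted p = 0.169 and 0.406), and Actn3 was called as TPM. The myosin heavy chains Myh4 of type 2B fibers and Myh1 of type 2X fibers had log2 fold changes of -0.21 and 0.05, with libraries that overlapped. Among 10 slow fiber genes 5 were above and 5 below 0, with a median of -0.00. Within that list, the myosin light chain gene Myl2 was at 3.46 (limma adjusted p = 0.127), and Myl3 and Myoz2 were at -1.24 and -0.98 (limma adjusted p = 0.359 and 0.414). The FPKM of Myl2 was 2.03, 1.85 and 9.68 in WT control replicates 1 to 3, and 42.1 and 33.6 in skmNrip1-/- labelled replicates 1 and 2. It was called with the replicate block and without WT control replicate 3, and both of these fits leave out WT control replicate 3. The part of fiber type in the differences of Ldhb and Ldha was not tested.

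Markers of the other cells of whole muscle were summed per library. The 6 red blood cell genes summed to 511 to 764 FPKM in WT control TA and to 827 and 996 in the libraries labelled skmNrip1-/-, which did not overlap. Hba-a2 and Hbb-bs, globin genes, had log2 fold changes of 0.52 and 0.51 (limma adjusted p = 0.329 and 0.382). The 3 satellite cell genes summed to 5.84 to 7.12 FPKM in WT control TA and to 4.51 and 4.53 in the other group, with Cdh15, a cadherin of satellite cells, at a log2 fold change of -0.56 (limma adjusted p = 0.241). The sums of the endothelial, adipocyte, Schwann cell, macrophage, fibroblast and smooth muscle lists overlapped between the groups, none of their genes reached an unadjusted p of 0.05, and none of the markers was at 0 in every library. The part of red blood cells or satellite cells in the differences of the 8 genes was not tested.

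Over the 5 libraries, the profiles of other genes were set beside those of Ldhb and Ldha, by the distance between log2(FPKM + 0.1) values centered on each gene's mean, among 4558 genes averaging 10 FPKM or more. The genes closest to Ldhb were Idh2, the mitochondrial isocitrate dehydrogenase, at a distance of 0.144, Hadhb, a subunit of the trifunctional β-oxidation protein, at 0.183, and Mgst1, a glutathione transferase, at 0.239. Their FPKM in the libraries labelled skmNrip1-/- was 255 and 237 for Idh2, 366 and 344 for Hadhb, and 64.5 and 61.7 for Mgst1. Closest to Ldha were Slc43a3, a purine transporter, at 0.0322, Tpi1, the glycolytic triosephosphate isomerase, at 0.0461, and Gmppa at 0.0744. The FPKM of Tpi1 was 1783, 1493 and 1572 in WT control replicates 1 to 3, and 1292 and 1169 in skmNrip1-/- labelled replicates 1 and 2. These distances describe 5 libraries and carry no test.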

How the data were processed

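RNA-seq values of TA muscle were analysed for 3 WT control libraries and 2 labelled skmNrip1-/-. The authors ran Salmon 1.10.2 on 150-bp paired reads against mm10, used tximport for gene-level values, and deposited FPKM per gene and library. How the FPKM were computed, and from which annotation release, is not given in the sources used here. The median ratio to the geometric mean of all genes was equal in the 5 libraries, so the deposited FPKM carry a scaling between libraries. The authors also deposited log2 fold changes and adjusted p-values of their own DESeq2 1.44.0 comparison, which were not used.

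The design was genotype alone and the call thresholds were those of the study. Because FPKM are not counts, the lmFit and trended eBayes functions of limma 3.58.1 (R 4.3.3) were applied to log2(FPKM + 0.1) of all 5 libraries, with Benjamini-Hochberg adjustment over all 12148 genes tested. The step was tested on simulated data. The 8 genes and all lists were chosen with earlier results of these data known. Beside the 8 genes and Nrip1, the text names the called genes of each list, or else up to 2 with the largest rise and 2 with the largest fall at an unadjusted p of 0.05 or less, and the 3 nearest profiles of Ldhb and Ldha. Genes beyond this rule were named after their values were seen. They are Ppargc1a, Hif1a, Nptn, Ldhal6b, Slc16a4, Slc16a8, Myh4, Myh1, Znrf1, Pdk1, Pdk2, Pdk4, Got1, Got2, Gpd1, Gpd2, Pvalb, Tnnt3 and Tnni2. Positions come from GENCODE M21 (GRCm38), which holds 16996 of the gene IDs, and promoter windows from RefSeq on GRCm38.p6, where 7 of the 8 genes have a window. Similar transcripts were found with blastn 2.17.0. Python 3.11.15, pandas 2.3.3 and matplotlib 3.10.9 served for tables and plots. The fragment totals are unknown, so no interval for counting error could be given. Alternatives were the pseudocount, the FPKM minimum, the scaling, the variance model, a replicate block, the call thresholds and leaving out each library.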

Additional observations from a re-analysis of the deposited data

How the results depend on the processing

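The log2 fold changes of Ldha, Ldhd, Slc16a3 and Bsg kept their direction and stayed uncalled under all 15 alternatives. Ldhb stayed above 0 under all 15, from 0.79 to 1.2, and lost its call under 7 of them. These were TPM (0.79), no trend (1.09), the replicate block (1.03) and 4 of the 5 fits that left out a library, in which values ran from 0.98 to 1.2. As TPM, Slc16a1 (-0.040), Mpc1 (-0.14) and Mpc2 (-0.083) reversed, and the log2 difference of summed Ldha and Ldhb moved from -0.27 to -0.57. The number of the 8 genes called was 1, and 0 as TPM, without the trend, with the block, under an adjusted p limit of 0.01 and in the same 4 fits (0 to 1 over all fits that left out a library). Over all genes tested, 45 were called higher and 10 lower. These counts were 29 and 59 as TPM, 22 and 3 without the trend, 18 and 4 with the replicate block, and 14 and 3 under an adjusted p limit of 0.01. They were 6 to 51 and 2 to 15 with a library left out, where a lone library labelled skmNrip1-/- is assumed to vary like the WT control libraries. Pseudocounts, FPKM minimums and the other scalings changed no call among the 8 genes. The replicate numbers, of which 2 are shared by the groups, do not mark the same animals, and the deviations of same-numbered libraries correlated at only 0.0647 and 0.0952. WT control replicate 3 has no partner, so it drops out of the fit with the block. Depth is unknown in absolute terms, which limits the low genes, such as Slc16a7, most.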
